A study of Mus musculus with 9 samples.

Results

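The insulin-like growth factor (IGF) system was followed in mammary tumours through 10 genes chosen by name. They are 6 genes of secreted IGF-binding proteins (*Igfbp2*, *Igfbp3*, *Igfbp4*, *Igfbp5*, *Igfbp6* and *Igfbp7*), the 2 IGF receptor genes *Igf1r* and *Igf2r*, and the 2 genes of IGF2 mRNA-binding proteins *Igf2bp2* and *Igf2bp3*. All 10 were among the 14108 genes in the count tables, and all 10 passed the filter on low counts.

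IGF1 and IGF2 signal through the tyrosine kinase encoded by *Igf1r*, whose adaptors pass the signal to PI3K and AKT. *Igf2r* encodes the mannose 6-phosphate receptor, which binds IGF2 and carries it to lysosomes, and in mice it is imprinted. The IGF-binding proteins hold IGFs outside the cell and are themselves cut by proteases that release the ligand, although *Igfbp7* encodes a more distant relative that binds IGFs weakly. The proteins of *Igf2bp2* and *Igf2bp3* share only a name with these: they are RNA-binding proteins with KH domains, first known as binders of *Igf2* mRNA, and *Igf2bp3* is a fetal gene that is silent in most adult tissues and active in many cancers.

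RNA-seq was performed on GFP-positive cells sorted from 9 primary tumours, 3 each of the mouse breast cancer models HR1, LM1 and LM9. HR1 is a non-metastatic line (LB-mHR1) from a mammary tumour of a transgenic mouse with mutant *PIK3CA* under the ubiquitous CAG promoter. LM1 and LM9 are each a single line grown from a lung metastasis of HR1 cells that carried a doxycycline-inducible *piggyBac* transposon, so all 3 models share the *PIK3CA* transgene and both LM lines differ from HR1 in transposition and in passage through lung. For each tumour 250000 cells in Matrigel and PBS were placed in the mammary fat pad of a female NOD/SCID (strain label NOD.CB17-Prkcd<scid>/J) mouse of 4 to 8 weeks, a host without functional T and B lymphocytes that keeps its own stroma and myeloid cells, and tumours were taken before 1500 mm3. The study classed HR1 as *Nfib* low-expression and LM1 and LM9 as *Nfib* high-expression, *Nfib* being the transcription factor gene that the study followed. Levels are given below as CPM, counts brought to a common library size with TMM factors, and a gene is called where its edgeR quasi-likelihood test had a Benjamini-Hochberg adjusted p-value below 0.05 over 14086 genes.

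Total counts ran from 32393958 to 46681945 per tumour, so that 3 counts, taken as the least amount told from 0, corresponded to 0.063 to 0.0997 CPM. HR1 replicate 1 stood apart from its group. Its *Nfib* level was 1342 CPM, against 23.9 and 18.3 CPM in HR1 replicates 2 and 3 and 421 to 792 CPM in the LM tumours, which goes against the *Nfib* low-expression class of HR1. Whether this library is a pure sample of the model on its label is in doubt. Pearson's r of log2 CPM over genes was 0.879 to 0.961 between HR1 tumours and 0.986 to 0.991 within LM1 or LM9. Values of the 10 genes against HR1 are therefore given with and without this library. The epithelial markers *Epcam*, *Cdh1* and *Krt18* were at most 4.49, 1.20 and 2.48 CPM in any tumour, and *Krt8* was not among the genes tabulated, so the mammary origin of the models was not seen in these markers, while *Krt14* made up most of the 158 to 182 CPM of epithelial markers in LM1. Summed fibroblast markers (12 of 12 tabulated) were 27356 to 36508 CPM in HR1, 12513 to 16598 CPM in LM1 and 10907 to 12636 CPM in LM9, and summed leukocyte markers (12 of 12) were 243 to 1067, 205 to 229 and 207 to 253 CPM. Of the leukocyte markers 0 were called higher and 7 lower in LM1 than in HR1, 0 higher and 9 lower in LM9 than in HR1, and 1 higher and 2 lower in LM9 than in LM1, beside 16.7% and 18.7%, 20.4% and 21.9%, and 11.5% and 10.6% of all tested genes. *Cd68* held 107 to 138 CPM of the LM9 sums and 15.9 to 17.9 CPM of those in LM1. Endothelial markers (11 of 12) summed to 16.6 to 133, 199 to 280 and 363 to 394 CPM in the same order. Most of that sum in the LM tumours was *Cdh5*, *Kdr* and *Flt1*, and *Pecam1* was at 0.38 to 6.42 CPM. Of these 11, 2 were called higher and 0 lower in LM1 than in HR1, 2 higher and 4 lower in LM9 than in HR1, and 0 either way in LM9 against LM1, beside the same shares of all genes. In LM9 against LM1 0 of 12 fibroblast, 0 of 7 pericyte and smooth muscle and 0 of 7 epithelial markers were called higher and 2, 2 and 3 lower, beside 11.5% and 10.6% of all genes. The part of other cell types in the differences below was not tested, and in sorted bulk RNA fewer cells of a type and less RNA per cell cannot be told apart.

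The clearest difference among the 10 genes lay in *Igf2bp3*, which was almost silent in HR1, low in LM1 and about 10.9-fold higher again in LM9, with no overlap between models. LM9 also had higher *Igf2bp2*, *Igf2r* and *Igf1r* than LM1. *Igfbp6* was lower in both LM models than in HR1, and *Igfbp3* was too, at a low level. The abundant *Igfbp2*, *Igfbp5* and *Igfbp7* split HR1 itself, since HR1 replicate 1 held 4.42 to 11.3 times the mean of the other 2 HR1 tumours. *Igfbp6*, *Igf2bp2* and *Igf2r* split it the other way, with that mean at 42.8, 4.88 and 3.35 times HR1 replicate 1.

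**Figure D1:**
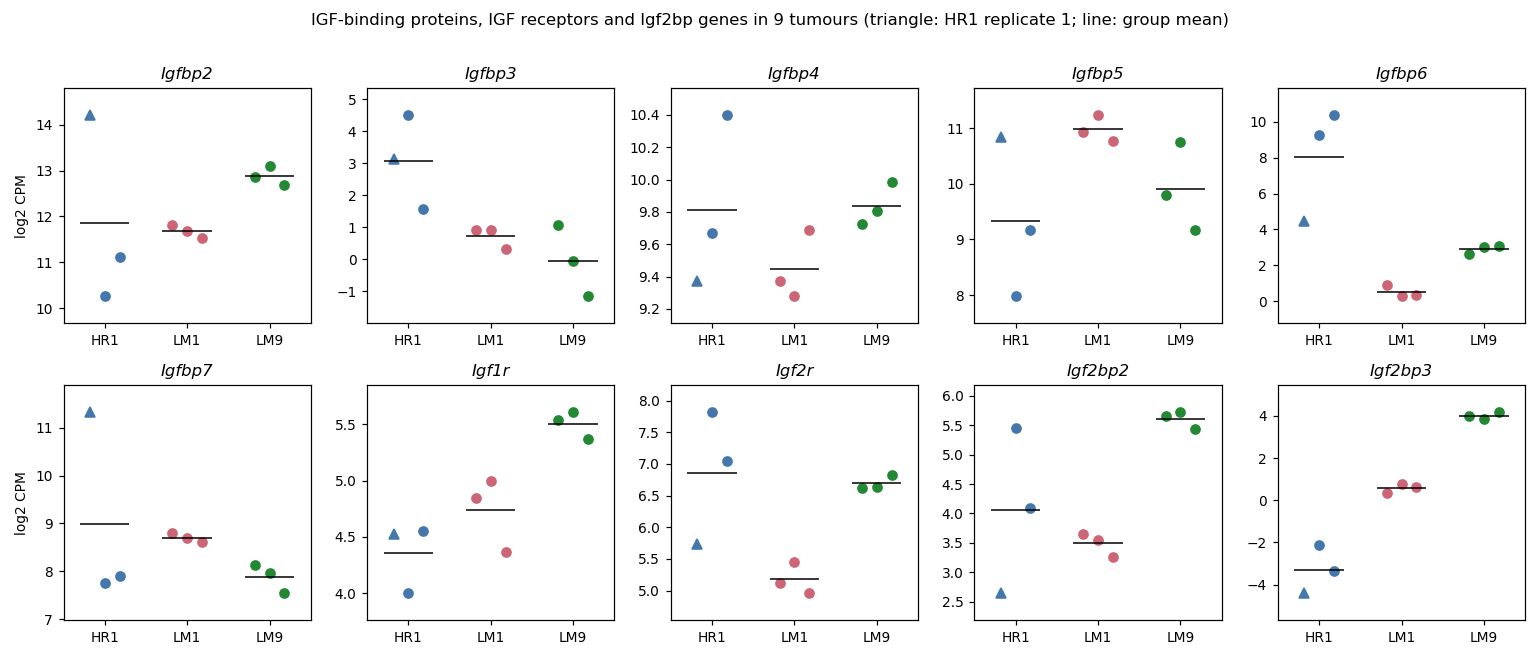
Log2 CPM (prior count of 2) of the 10 genes in each tumour, by model, with a line at each group's mean; each panel has its own axis range and HR1 replicate 1 is a triangle. *Igf2bp3* steps up from HR1 to LM1 to LM9 without overlap, whereas the HR1 triangle lies far above the other HR1 points for *Igfbp2* and *Igfbp7* and far below them for *Igfbp6*.

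LM9 was compared with LM1 to ask how the 2 metastatic lines differ. In LM9 4 of the 10 genes were called, all higher, against a background of 22.0% of all tested genes (11.5% called higher). These were *Igf2bp3*, *Igf2bp2*, *Igf2r* and *Igf1r*, and the median log2 fold change of the 10 genes was 0.98 against 0.00 over all genes. The tumours of the models did not overlap for 9 of the 10 genes, all but *Igfbp3*, where 63.0% of all genes showed no overlap. The count depended on which tumours set the spread. With only the 6 LM tumours in the fit 8 of 10 were called (7 higher, 1 lower; background 56.3%, or 28.3% higher and 28.0% lower), without HR1 replicate 1 it was 7 (6 higher, 1 lower; background 45.5%, or 22.9% higher and 22.5% lower), and without any single LM tumour 1 or 2 remained past the threshold, *Igf2bp3* always among them, where 8.16% to 15.3% of all genes were called.

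LM1 differed from HR1 in 4 of the 10 genes, with *Igf2bp3* higher and *Igfbp3*, *Igfbp6* and *Igf2r* lower, against a background of 35.5% called (16.7% higher, 18.7% lower). The median log2 fold change was −1.08 for the 10 genes and −0.04 for all genes, but −0.07 and 0.01 without HR1 replicate 1. Without HR1 replicate 1 the count was 9 (4 higher, 5 lower; background 52.8%, or 26.9% higher and 26.0% lower). Groups did not overlap for 4 of 10, against 45.6% of all genes.

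LM9 differed from HR1 in 4 of the 10 genes as well. *Igf2bp3* and *Igf1r* were higher and *Igfbp3* and *Igfbp6* lower, where the background was 42.3% (20.4% higher, 21.9% lower). The medians were −0.01 for the 10 genes and −0.05 for all genes, and 0.38 and −0.01 without HR1 replicate 1. Leaving out HR1 replicate 1 gave 7 called genes (4 higher, 3 lower; background 55.7%, or 27.9% higher and 27.8% lower), and 4 of 10 did not overlap against 53.2% of all genes. With LM1 and LM9 as a pair 5 of 10 were called against HR1 (background 43.6%, of which 19.9% higher and 23.6% lower), namely *Igf2bp3* and *Igf1r* higher and *Igfbp3*, *Igfbp6* and *Igf2r* lower, and 8 were called without HR1 replicate 1 (background 56.0%; 27.5% higher and 28.5% lower). The *Igf2r* call was lost under limma-voom (limma adjusted p = 0.0717) and without HR1 replicate 2 or 3, LM1 replicate 1 or 3, or LM9 replicate 1 or 2 (edgeR adjusted p = 0.0517 to 0.149). The 6 LM tumours lay clear of all HR1 tumours for *Igfbp3*, *Igfbp6* and *Igf2bp3*, 3 of 10 genes against 29.9% of all genes. With all 9 tumours in the fit, the share of the 10 genes called against HR1 was thus near that of all genes. These comparisons share tumours and are not independent of each other.

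**Figure D2:**
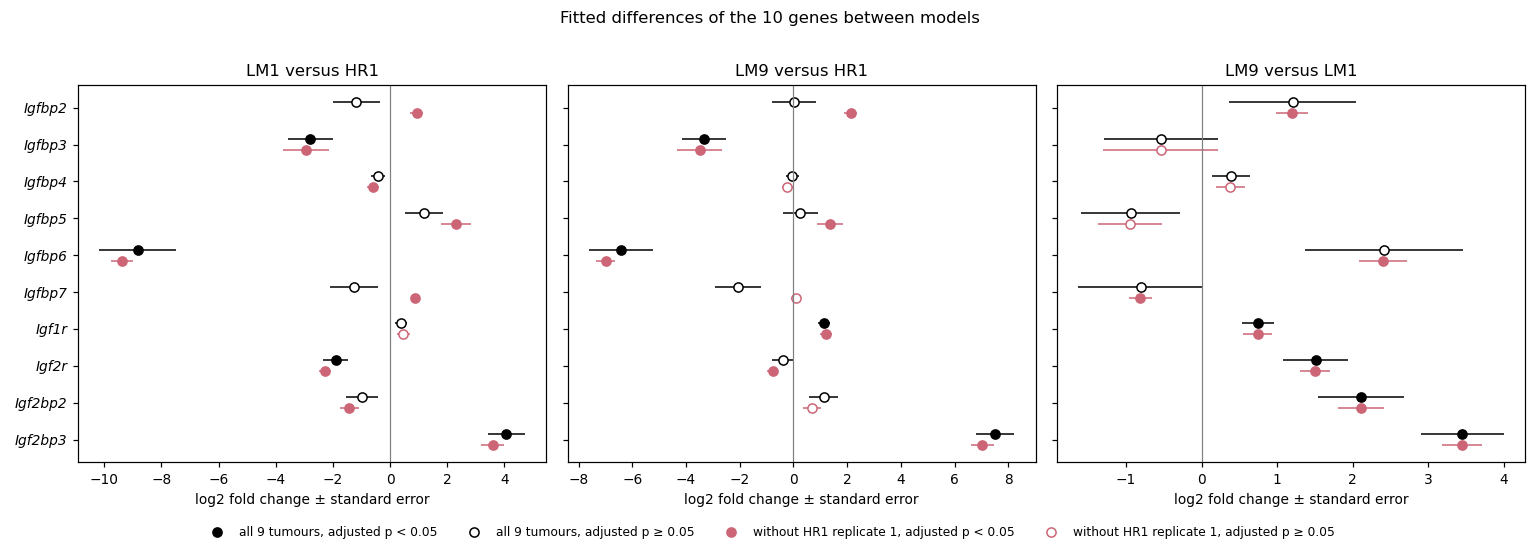
Fitted log2 fold change ± standard error of the 10 genes for 3 comparisons, each panel with its own axis range; black marks use all 9 tumours, red marks leave out HR1 replicate 1, and filled marks have an adjusted p-value below 0.05. For *Igfbp2* and *Igfbp7* in LM1 versus HR1 the red and black marks lie on opposite sides of 0, and the *Igf2bp3* marks are filled in every panel.

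Among the binding proteins, levels were set side by side per kilobase of exon. *Igfbp2* was the highest of the 6 in every tumour. Its share of the summed *Igfbp* level was 87.4%, 87.0% and 87.9% in the LM9 tumours and 69.8%, 66.6% and 66.7% in the LM1 tumours. In HR1 its share was 79.7% in replicate 1, but 41.0% and 40.5% in replicates 2 and 3, where *Igfbp6* held 33.8% and 39.4%. *Igfbp6* was at or under 0.189% in the other 7 tumours. LM1 differed from LM9 in a larger share of *Igfbp5* (11.7%, 15.1% and 12.1% against 3.23%, 5.30% and 2.37%) and of *Igfbp7* (13.1%, 13.0% and 13.5% against 5.04%, 3.83% and 3.83%). The summed level itself was 2401 to 2804 CPM per kb in LM1, 4030 to 5423 in LM9, and 12769, 1629 and 2975 in HR1 replicates 1, 2 and 3.

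**Figure D3:**
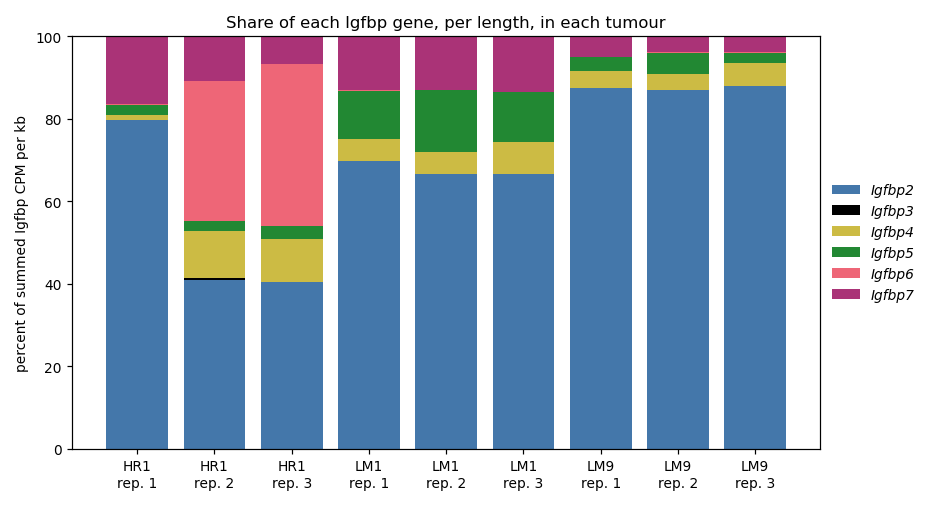
Percent of the summed *Igfbp* CPM per kb that each of the 6 genes held, with 1 bar for each tumour. *Igfbp2* takes 66.6% to 87.9% of the LM bars, and the broad *Igfbp6* band appears in HR1 replicates 2 and 3 but not in HR1 replicate 1.

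*Igfbp2* (Entrez 16008, chr1:72824503-72852474, plus strand; GRCm38 for all coordinates here) encodes a binding protein that is often raised in tumours. It measured 18797, 1232 and 2225 CPM in HR1 replicates 1, 2 and 3. In HR1 replicate 1 it was the most abundant of all genes by count, with 1.75% of the library. LM1 tumours had 3614, 3266 and 2956 CPM and LM9 tumours 7383, 8714 and 6544 CPM, so that every LM9 tumour was above every LM1 tumour and both lay between HR1 replicate 1 and the other HR1 tumours. LM9 was 2.30-fold higher than LM1 in mean level. That difference, a log2 fold change of 1.20 ± 0.84 (SE), was not called with HR1 in the fit (edgeR adjusted p = 0.326), and was called at 1.20 ± 0.21 without HR1 replicate 1 (edgeR adjusted p = 0.00164). Against HR1 the LM1 difference turned from −1.18 ± 0.84 (edgeR adjusted p = 0.300) to 0.93 ± 0.24 (edgeR adjusted p = 0.00882) once HR1 replicate 1 was left out. For LM9 it went from 0.02 ± 0.83 to 2.13 ± 0.25 (edgeR adjusted p = 0.985 and 0.000114), but was −0.48 without HR1 replicate 2 and −0.41 without HR1 replicate 3 (edgeR adjusted p = 0.597 and 0.707).

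*Igfbp5* (Entrez 16011, chr1:72857932-72874884, minus strand) is the tail-to-tail neighbour of *Igfbp2*, 5457 bases away with 0 annotated genes between, and is known in the mammary gland for its rise during involution. The 2 neighbours did not follow each other between the LM models. *Igfbp5* was 1968, 2404 and 1738 CPM in LM1 and 887, 1726 and 573 CPM in LM9, a ratio of 1.92 in favour of LM1, whose lowest tumour was barely above the highest of LM9. The log2 fold change of −0.94 ± 0.66 was not called (edgeR adjusted p = 0.329, and 0.0653 in the LM tumours alone). HR1 tumours had 1834, 253 and 577 CPM. Without the first of these LM1 was higher by 2.30 ± 0.51 and LM9 by 1.36 ± 0.49 on the log2 scale (edgeR adjusted p = 0.00592 and 0.0439). With it neither comparison was called (1.20 ± 0.66 and 0.26 ± 0.65, edgeR adjusted p = 0.189 and 0.773). The LM9 value turned to −0.18 without HR1 replicate 2 and to −0.30 without LM9 replicate 2 (edgeR adjusted p = 0.813 and 0.772).

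*Igfbp7* (Entrez 29817, chr5:77349240-77408041, minus strand), known from vessels and stroma, was 2556 CPM in HR1 replicate 1 and 215 and 239 CPM in replicates 2 and 3. It was 444, 417 and 391 CPM in LM1 and 278, 251 and 187 CPM in LM9, without overlap between these models. LM9 was lower than LM1 without HR1 replicate 1 in the fit, at a log2 fold change of −0.81 ± 0.15 (edgeR adjusted p = 0.00215), but not called with it (−0.81 ± 0.83, edgeR adjusted p = 0.514). The sign against HR1 also turned with this library. LM1 minus HR1 was −1.27 ± 0.83 with it and 0.89 ± 0.17 without it (edgeR adjusted p = 0.266 and 0.00195), and LM9 minus HR1 was −2.07 ± 0.85 and 0.08 ± 0.17 (edgeR adjusted p = 0.0804 and 0.713). LM9 was called lower than HR1 without HR1 replicate 2 (−2.55, edgeR adjusted p = 0.0303) or 3 (−2.54, edgeR adjusted p = 0.0311). The marker lists were mixed in HR1 replicate 1. Of 12 fibroblast markers 7 were highest of the HR1 tumours there, *Dcn* among them (17598 against 432 and 329 CPM), and 4 were lowest, *Col1a2*, *Col3a1*, *Postn* and *Col6a3*. Of 11 endothelial markers 0 were highest and 4 lowest there. An overlap of 85 exon bases with *Polr2b* on the opposite strand touches *Igfbp7* only slightly.

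*Igfbp6* (Entrez 16012, chr15:102144362-102149511, plus strand) encodes the binding protein that prefers IGF2 over IGF1. It had the widest range of the 10 genes apart from *Igf2bp3*, which includes a tumour at 0. HR1 tumours had 22.3, 612 and 1302 CPM. LM1 tumours had 1.85, 1.18 and 1.22 CPM and LM9 tumours 6.14, 8.08 and 8.48 CPM, so that all 6 LM tumours were below all HR1 tumours, replicate 1 included. The gene was lower in LM1 and in LM9, with log2 fold changes of −8.83 ± 1.35 and −6.41 ± 1.20 (edgeR adjusted p = 0.00176 and 0.00376), and both calls held in all 18 alternatives tried. The values were −9.38 ± 0.40 and −6.98 ± 0.35 without HR1 replicate 1, and −7.80 ± 1.20 and −5.39 ± 1.07 without HR1 replicate 3. Between the LM models LM9 was 5.35-fold above LM1 in mean level, which was called without HR1 replicate 1 (2.40 ± 0.32, edgeR adjusted p = 0.000529) and not with it (2.41 ± 1.05, edgeR adjusted p = 0.128). In the same LM tumours 6 of 12 fibroblast markers were called lower in LM1 than in HR1 and 10 of 12 in LM9, as were 7 and 9 of 12 leukocyte markers and 1 and 3 of 7 pericyte and smooth muscle markers, with 0 called higher, beside 18.7% and 21.9% of all genes called lower. The summed pericyte and smooth muscle markers were 101 to 767 CPM in HR1, 94.1 to 99.4 CPM in LM1 and 50.2 to 73.1 CPM in LM9.

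*Igfbp3* (Entrez 16009, chr11:7206086-7213923, minus strand), the main carrier of IGFs in serum, was the lowest of the binding proteins per length in both LM models. It was 8.71, 22.4 and 2.91 CPM in HR1, 1.85, 1.86 and 1.19 CPM in LM1, and 2.04, 0.916 and 0.405 CPM in LM9. All LM tumours lay below all HR1 tumours, although the gap between the lowest HR1 and the highest LM9 tumour was small. The log2 fold changes were −2.79 ± 0.79 for LM1 and −3.34 ± 0.81 for LM9 (edgeR adjusted p = 0.0239 and 0.0115), and −2.94 ± 0.81 and −3.49 ± 0.83 without HR1 replicate 1 (edgeR adjusted p = 0.0152 and 0.00738). The LM1 call was lost under limma-voom (−2.39, limma adjusted p = 0.0590), without HR1 replicate 2 (−1.82 ± 0.68, edgeR adjusted p = 0.0742) and without any 1 of the LM1 tumours (edgeR adjusted p = 0.0725 to 0.0833), whereas the LM9 call held in all 18 alternatives. Its size varied, from −2.37 without HR1 replicate 2 to −4.10 without LM9 replicate 1. LM9 and LM1 overlapped and were not called apart (−0.54 ± 0.76, edgeR adjusted p = 0.637).

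*Igfbp4* (Entrez 16010, chr11:99041244-99054392, plus strand), the substrate of the protease PAPP-A, varied least, by 2.17-fold between the lowest and highest tumour. It was 663, 813 and 1347 CPM in HR1, 662, 621 and 824 CPM in LM1, and 846, 896 and 1012 CPM in LM9. HR1 overlapped both LM models, and each LM9 tumour was above each LM1 tumour. In the fit of all tumours none of the differences was called (LM1 versus HR1 −0.42 ± 0.26, LM9 versus HR1 −0.04 ± 0.25, LM9 versus LM1 0.39 ± 0.26; edgeR adjusted p = 0.225, 0.920 and 0.302). Without HR1 replicate 1 LM1 was lower than HR1 (−0.61 ± 0.21, edgeR adjusted p = 0.0314), and LM9 was at −0.23 ± 0.21 (edgeR adjusted p = 0.363). Of its 50-base windows 1.72% also occur in transcripts of *Echs1*, while the other 9 genes shared 0 windows with another gene.

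The 2 receptors were both higher in LM9 than in LM1. *Igf1r* (Entrez 16001, chr7:67952827-68233668, plus strand) was 46.5, 48.7 and 41.2 CPM in LM9, 28.7, 31.9 and 20.5 CPM in LM1, and 23.0, 16.0 and 23.4 CPM in HR1. LM9 tumours were above all others, whereas LM1 and HR1 overlapped. The log2 fold change of LM9 was 0.75 ± 0.21 over LM1 and 1.13 ± 0.21 over HR1 (edgeR adjusted p = 0.0356 and 0.00372), and 0.74 ± 0.19 and 1.21 ± 0.22 without HR1 replicate 1 (edgeR adjusted p = 0.0113 and 0.00142). The call over HR1 held in all 18 alternatives. That over LM1 was lost under library-size scaling (edgeR adjusted p = 0.0510) and without any LM tumour but LM1 replicate 2 (up to an edgeR adjusted p of 0.127). LM1 and HR1 were not called apart (0.38 ± 0.21, edgeR adjusted p = 0.188), nor without HR1 replicate 1 (0.47 ± 0.22, edgeR adjusted p = 0.0968).

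*Igf2r* (Entrez 16004, chr17:12682406-12769664, minus strand) was 98.5, 99.3 and 113 CPM in LM9 and 34.8, 43.5 and 31.1 CPM in LM1. HR1 tumours had 53.1, 225 and 131 CPM, all above the LM1 tumours, and overlapped with LM9. LM1 was lower than HR1 with a log2 fold change of −1.90 ± 0.43 (edgeR adjusted p = 0.00987; −2.28 ± 0.22 without HR1 replicate 1), a call that held in all 18 alternatives, and LM9 was above LM1 by 1.51 ± 0.43 (edgeR adjusted p = 0.0359). The latter was lost without any 1 of the LM tumours (edgeR adjusted p up to 0.126). LM9 and HR1 were not called apart with all tumours (−0.40 ± 0.42, edgeR adjusted p = 0.469), and LM9 was lower without HR1 replicate 1 (−0.78 ± 0.22, edgeR adjusted p = 0.0126). The sign turned without HR1 replicate 2 (0.17 ± 0.34, edgeR adjusted p = 0.720). *Igf1r* and *Igf2r* thus stood in different orders, LM9 above the overlapping LM1 and HR1 for the former and LM1 below the overlapping LM9 and HR1 for the latter. Per length, *Igf2r* was the higher of the 2 receptors in each model, at 11.1 ± 0.892 against 2.71 ± 0.228 CPM per kb in LM9 (SD, n = 3).

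*Igf2bp3* (Entrez 140488, chr6:49085223-49214957, minus strand) gave the largest fold of the 10 genes between the LM models. It had 0, 8 and 2 counts in HR1, or 0, 0.180 and 0.0515 CPM, and the 0 allows up to 0.0997 CPM. LM1 tumours had 58, 73 and 59 counts (1.22, 1.65 and 1.50 CPM), and LM9 tumours 736, 620 and 791 counts (15.8, 14.2 and 17.8 CPM). The 3 models did not overlap. LM9 was above LM1 by 3.45 ± 0.55 on the log2 scale (edgeR adjusted p = 0.00443) and above HR1 by 7.52 ± 0.71 (edgeR adjusted p = 0.000158), and LM1 was above HR1 by 4.07 ± 0.65 (edgeR adjusted p = 0.00203). These calls held in all 18 alternatives, with an adjusted p of at most 0.0328 for LM9 over LM1 when 1 tumour was left out, although the size against HR1 rests on a total of 10 HR1 counts. The values against HR1 were 7.03 ± 0.42 and 3.59 ± 0.41 without HR1 replicate 1, and 8.98 ± 0.62 and 5.53 ± 0.60 without HR1 replicate 2, which holds 8 of these counts. Of its 8159 exon bases 1529 overlap *Malsu1* on the opposite strand, and *Malsu1* had 1104 counts in HR1 replicate 1, where *Igf2bp3* had 0.

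*Igf2bp2* (Entrez 319765, chr16:22059009-22163299, minus strand), which unlike its relatives stays active in many adult tissues, was 50.4, 52.6 and 43.1 CPM in LM9 and 12.5, 11.7 and 9.55 CPM in LM1, a ratio of 4.33. HR1 tumours spread from 6.22 CPM in replicate 1 to 43.5 and 17.1 CPM in the others, across the whole LM1 range. LM9 was above LM1 by 2.11 ± 0.57 on the log2 scale (edgeR adjusted p = 0.0305), which was lost without any 1 of the LM tumours (edgeR adjusted p of 0.0710 to 0.111) and was 2.10 ± 0.14 in the LM tumours alone. Against HR1 neither model was called with all tumours (LM1 −0.99 ± 0.55, LM9 1.13 ± 0.55; edgeR adjusted p = 0.193 and 0.129). Without HR1 replicate 1 LM1 was lower (−1.42 ± 0.32, edgeR adjusted p = 0.00516) and LM9 was at 0.69 ± 0.33 (edgeR adjusted p = 0.102). Without HR1 replicate 2, LM9 was called higher (2.06 ± 0.40, edgeR adjusted p = 0.00616) and LM1 was at −0.05 (edgeR adjusted p = 0.930). Under limma-voom LM9 was also called higher than HR1 (1.44, limma adjusted p = 0.0468). The third relative, *Igf2bp1*, went the other way from *Igf2bp3*: it was 0.532, 6.48 and 4.89 CPM in HR1 and at most 0.258 CPM in every LM tumour, with log2 fold changes of −5.30 ± 1.19 in LM1 and −4.59 ± 1.13 in LM9 (edgeR adjusted p = 0.00937 and 0.0122).

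In order of level per length, LM1 ran from *Igfbp2* through *Igfbp7* and *Igfbp5*, which overlapped, to *Igfbp4* and *Igf2r*, then to *Igf1r*, *Igf2bp2* and *Igfbp6*, which overlapped as neighbours, and last to *Igfbp3* and *Igf2bp3*. In LM9 *Igfbp4*, *Igfbp7* and *Igfbp5* overlapped as neighbours after *Igfbp2*, *Igf2r* came next, *Igfbp6* and *Igf2bp2* overlapped, and *Igf1r*, *Igf2bp3* and *Igfbp3* followed. *Igf2bp3* at 1.95 ± 0.221 CPM per kb thus stood above *Igfbp3* in LM9, at 0.358 ± 0.267, and below it in LM1, at 0.179 ± 0.0271 against 0.522 ± 0.122 (SD, n = 3 each). In HR1 the 5 leading *Igfbp* genes overlapped as neighbours, as did *Igf2r*, *Igfbp3*, *Igf2bp2* and *Igf1r*, and *Igf2bp3* was last.

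Promoter windows of the 10 genes (RefSeq, GRCm38.p6; *Igfbp2* has 2 windows, the others 1) were read for the letters bound by NFI, hypoxia-inducible and bHLH factors, to describe how the members differ. The E-box letters CACGTG, which contain ACGTG and read alike on both strands, occurred in *Igf2bp3*, *Igf2r* and *Igfbp2*, and in 7.15% of 32851 windows. These letters were not in the planned set of searches. The 30-base stretches that hold them are shown with these letters in capitals, all on the strand of the gene, with 1 of the 2 stretches of *Igf2r*.
Igf2bp3, chr6:49214960-49214989, minus strand: gctgggattcctCACGTGagacgttgattt
Igf2bp3, chr6:49214932-49214961, minus strand: ttgtagtttgaaCACGTGgctcattcaaaa
Igf2r, chr17:12769737-12769766, minus strand: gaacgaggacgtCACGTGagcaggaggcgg
Igfbp2, chr1:72824326-72824355, plus strand: cgtgtgcacaagCACGTGccctcacgcaag

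The shorter ACGTG was searched on both strands and was found in 5 of the 10 genes (*Igf2bp2* and *Igfbp7* beside these 3) and in 19.6% of all windows. *Igf2bp2* carries it on the opposite strand, in capitals here as CACGT.
Igf2bp2, chr16:22163441-22163470, minus strand: tggccccgcgccCACGTcgcgtccaccttg
GCGTG was in 6 genes, *Igf1r* among them, and in 32.4% of windows. The letters TTGGC of the NFI half-site were in *Igfbp5* and *Igfbp7* and in 46.7% of windows, and the full NFI palindrome (TTGGC, a short gap and GCCAA) was in 0 of the 10 genes and in 0.0365% of windows. Of the 4 genes called higher in LM9 than in LM1, *Igf2bp3*, *Igf2bp2* and *Igf2r* hold ACGTG and *Igf1r* does not. *Igfbp2* and *Igfbp7*, not called in that comparison with all tumours in the fit, hold it too. The 4 genes were picked from these same data, so this is no test of a shared promoter feature. A match is a run of letters and no evidence of binding.

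The other genes of the system were read as 4 lists in the same fit. Of 7 tested genes of ligands and further IGF-binding proteins, 0 were called higher and 3 lower in LM1 than in HR1, 0 higher and 5 lower in LM9 than in HR1, and 1 higher and 1 lower in LM9 than in LM1. Of all tested genes 35.5%, 42.3% and 22.0% were called in these comparisons. Their median log2 fold changes were −0.90, −3.43 and −0.89, where those of all genes were −0.04, −0.05 and 0.00. *Igf1*, the ligand of *Igf1r*, was 13.4, 13.9 and 14.2 CPM in LM1 and 0.515, 0.275 and 0.405 CPM in LM9, a log2 fold change of −5.10 ± 1.10 (edgeR adjusted p = 0.0142). HR1 tumours had 25.3, 2.43 and 1.26 CPM of *Igf1*. Among 12 fibroblast markers 0 were called higher and 2 lower in LM9 than in LM1, beside 11.5% and 10.6% of all tested genes. *Dcn* was 562 to 645 CPM in LM1, 15.9 to 76.8 CPM in LM9 and 17598, 432 and 329 CPM in HR1. *Pdgfra* went the other way between the LM models, at 40.2 to 45.9 CPM in LM1 and 82.7 to 103 CPM in LM9. The part of fibroblasts in the *Igf1* difference was not tested. *Igfals*, which encodes the acid-labile subunit of the serum IGF complex, was higher in LM9 than in LM1 with a log2 fold change of 2.92 ± 0.78 at 1.01 to 1.33 CPM in LM9 (edgeR adjusted p = 0.0291). *Kazald1*, of a secreted protein with an IGF-binding domain, was lower in LM1 (−3.36 ± 0.44) and in LM9 (−3.43 ± 0.44) than in HR1 (edgeR adjusted p = 0.000847 and 0.000679). *Esm1*, an endothelial proteoglycan gene with such a domain, was lower in LM1 (−3.12 ± 0.71) and in LM9 (−4.00 ± 0.76) than in HR1 (edgeR adjusted p = 0.0102 and 0.00394), from at most 1.33 CPM in HR1.

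Among 13 tested genes of the insulin receptor and of receptor adaptors, 3 were higher and 2 lower in LM1 than in HR1, 5 higher and 2 lower in LM9 than in HR1, and 4 higher and 1 lower in LM9 than in LM1, with medians of −0.31, −0.11 and 0.39. All genes gave 16.7% higher and 18.7% lower, 20.4% and 21.9%, and 11.5% and 10.6%. *Insr*, the insulin receptor and closest relative of *Igf1r*, was 32.7, 30.1 and 30.4 CPM in LM9 and 12.6, 14.2 and 10.3 CPM in LM1, higher by 1.33 ± 0.25 (edgeR adjusted p = 0.00811). *Grb14*, an adaptor that inhibits the insulin receptor, was 22.8, 18.1 and 18.1 CPM in LM1, 0.708, 0.824 and 0.248 CPM in LM9, and 7.05, 14.2 and 9.21 CPM in HR1. It was thus lower in LM9, with log2 fold changes of −5.04 ± 0.48 against LM1 and −4.09 ± 0.46 against HR1 (edgeR adjusted p = 0.000548 and 0.000387). Of the receptor substrates, *Irs1* was higher than in HR1 by 1.51 ± 0.25 in LM1 and 1.90 ± 0.25 in LM9 (edgeR adjusted p = 0.00233 and 0.000787). *Irs2* was higher than in HR1 by 1.67 ± 0.38 in LM1 and 2.93 ± 0.39 in LM9 (edgeR adjusted p = 0.00959 and 0.000819). It was also higher in LM9 than in LM1, by 1.26 ± 0.37 (edgeR adjusted p = 0.0394). *Sh2b2* was higher in LM9 than in HR1 by 1.69 ± 0.39 (edgeR adjusted p = 0.00899). *Shc1* was lower in LM1 than in HR1 (−1.17 ± 0.18) and higher again in LM9 (0.71 ± 0.17 over LM1) (edgeR adjusted p = 0.00155 and 0.0214).

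Of 12 tested proteases of IGF-binding proteins and their inhibitors, 2 were higher and 2 lower in LM1 than in HR1, 1 higher and 2 lower in LM9 than in HR1, and 1 higher and 2 lower in LM9 than in LM1, with medians of −0.34, −0.17 and −0.23, beside 35.5%, 42.3% and 22.0% of all genes called. *Mmp2* was 2233, 657 and 511 CPM in HR1, 30.3, 30.1 and 35.1 CPM in LM1, and 379, 251 and 192 CPM in LM9. It was lower in LM1 than in HR1 (−5.15 ± 0.61, or −4.19 without HR1 replicate 1) and higher in LM9 than in LM1 (3.10 ± 0.56) (edgeR adjusted p = 0.000586 and 0.00699). *Adam12* was highest in LM1, by 2.58 ± 0.24 over HR1, and lower in LM9 than in LM1, at −1.40 ± 0.23 (edgeR adjusted p = 0.000223 and 0.00505). *Pappa2*, a protease of *Igfbp5* protein, was lower in LM9 than in LM1, at −1.79 ± 0.40 (edgeR adjusted p = 0.0165), the direction in which the *Igfbp5* and *Igfbp7* values also lay. *Htra1* was lower in both LM models than in HR1, at −1.43 ± 0.18 and −1.41 ± 0.18 (edgeR adjusted p = 0.000808 and 0.000755).

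The fourth list joined *Igf2bp1* with genes of the Lin28 and let-7 axis and of mannose 6-phosphate sorting. Of 11 tested genes 0 were higher and 3 lower in LM1 than in HR1, 1 higher and 1 lower in LM9 than in HR1, and 1 higher and 0 lower in LM9 than in LM1, with medians of −0.39, −0.29 and 0.33. The shares of all genes were again 16.7% and 18.7%, 20.4% and 21.9%, and 11.5% and 10.6%. *Gnptg*, a subunit of the enzyme that makes the tag read by the *Igf2r* protein, was lower in LM1 than in HR1, at −0.81 ± 0.17 (edgeR adjusted p = 0.00653). The 1 gene higher in LM9 than in LM1 was *Hmga1*, named here after its values were seen, with a difference of 2.18 ± 0.65 (edgeR adjusted p = 0.0423). Without HR1 replicate 1 the counts of genes higher and lower in LM1 than in HR1 were 1 and 3 for the ligand list, 4 and 6 for the adaptors, 4 and 4 for the proteases and 0 and 6 for the fourth list, where 26.9% of all genes were higher and 26.0% lower. For LM9 against HR1 they were 2 and 5, 5 and 3, 5 and 4, and 2 and 3 (all genes 27.9% and 27.8%), and for LM9 against LM1 1 and 1, 5 and 3, 3 and 4, and 4 and 0 (all genes 22.9% and 22.5%). In the same order, the list medians of LM1 against HR1 were then −0.84, −0.27, −0.14 and −0.46 (all genes 0.01). Those of LM9 against HR1 were −2.20, −0.16, 0.29 and 0.08 (all genes −0.01). In LM9 the medians of the proteases and of the fourth list thus changed sign without HR1 replicate 1. Every call against HR1 of a gene named from these lists was also made without that library, in the same direction. Without it the log2 fold changes in LM1 and LM9 were −3.67 and −3.75 for *Kazald1*, 1.33 and 1.72 for *Irs1*, −1.20 and −1.18 for *Htra1* and −5.81 and −5.10 for *Igf2bp1*. In LM9 they were 2.75 for *Irs2*, −4.29 for *Grb14*, −3.73 for *Esm1* and 1.31 for *Sh2b2*. In LM1 they were 1.49 for *Irs2*, −2.84 for *Esm1*, −1.25 for *Shc1*, 2.75 for *Adam12* and −0.95 for *Gnptg*.

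**Figure D4:**
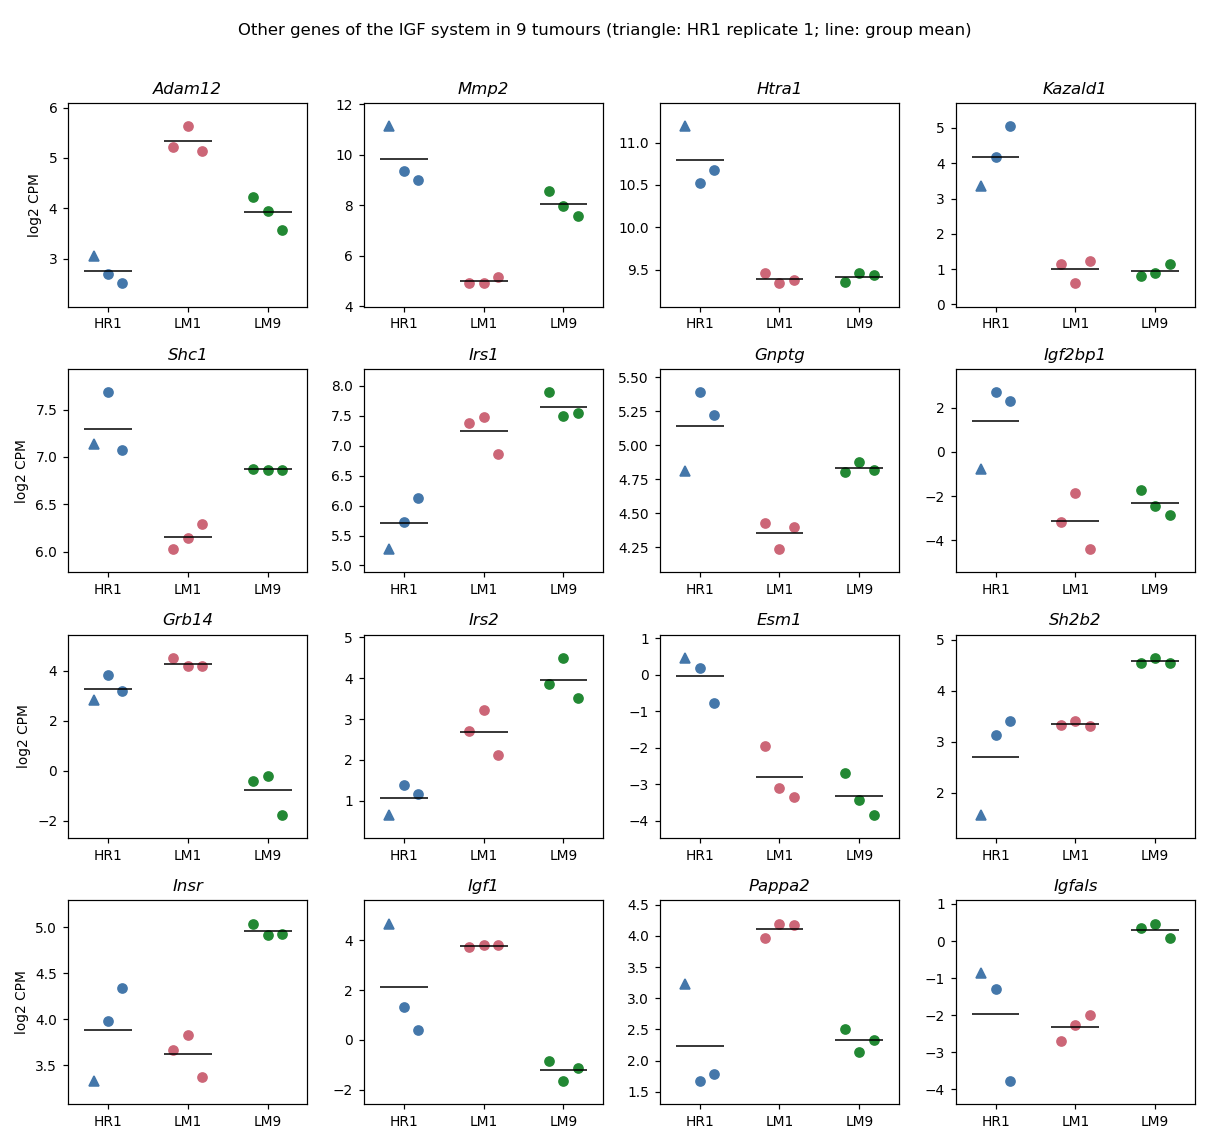
Log2 CPM (prior count of 2) in each tumour of the 16 genes outside the 10 that were named by the rule in the pairwise comparisons, by model, with a line at each group's mean, HR1 replicate 1 as a triangle and a separate axis range in each panel. LM9 lies below the other models for *Grb14* and *Igf1* and above them for *Insr*, and both LM models lie below HR1 for *Kazald1* and *Htra1*.

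The genes most like each member over the 9 tumours were ranked by the root mean square difference of centred log2 CPM among the 12377 genes whose mean was 1 CPM or more. For *Igf2bp3* they were *Pla2g4e* (0.547) and *Nos2* (0.669), and for *Igf2bp2* *Gpt* (0.290) and *Arhgap27* (0.302). *Igf2r* was nearest to *Dusp18* (0.146) and *Irak2* (0.221), and *Igf1r* to *Arhgef10l* (0.107) and *Aebp2* (0.109). Among binding proteins, *Igfbp2* was nearest to *Mirt1* (0.339) and *Cadm1* (0.362), *Igfbp5* to *Bgn* (0.432) and *Lrrc1* (0.462), and *Igfbp7* to *Cebpd* (0.209) and *Fzd3* (0.219). *Igfbp4* was nearest to *Nsdhl* (0.105) and *Tmem138* (0.107), and *Igfbp3* to *Lyl1* (0.480) and *Pde3b* (0.489). *Igfbp6* was nearest to *Cpne5* (1.09) and *Megf10* (1.16). The differences are not scaled to a gene's own range, which was wide for *Igfbp6*, so their size cannot be compared between members. None of these 20 genes was itself a member, so no 2 members were each other's nearest genes.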

How the data were processed

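For each of 9 tumours, 3 per model, the authors deposited whole-number counts per gene under Entrez numbers, not normalized. Per the paper's methods, stranded mRNA libraries gave single-end reads of 50 nt, which were aligned to mm10 with STAR, and 5′ ends on exons were counted with qCount of QuasR in an exon union model. The strand setting of the counting and the filter on genes are not given in the sources used here. Every tabulated gene had at least 7 counts in at least 3 tumours. Reads of one molecule cannot be told from PCR copies, so limits from counts cover counting error only.

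Symbols came from RefSeq and GENCODE M21 (GRCm38, the same build as mm10) and matched 14089 of 14108 genes. Exon union lengths from GENCODE gave CPM per kb. Counts were scaled by TMM (factors 0.929 to 1.05), filtered with filterByExpr (22 genes left out) and fitted with the robust quasi-likelihood test of edgeR 4.0.16 (R 4.3.3). A single model held the 3 groups and gave 4 contrasts: LM1 versus HR1, LM9 versus HR1, LM9 versus LM1, and LM1 and LM9 together versus HR1. Benjamini-Hochberg adjustment ran over all genes in the fit, and an adjusted p under 0.05 counted as a call. Standard errors are the log2 fold change over the square root of F and are approximate. Groups are from the sample titles. No source says whether the tumours of a model came from separate cultures, so the p-values measure the spread between these tumours. No 2 tumours were alike within sampling noise.

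The 10 genes, the gene lists and the tests were chosen with earlier results of these data known. All 10 genes are named. From the lists of ligands, adaptors, proteases and Igf2bp1 with sorting genes, up to 8 genes per comparison with the smallest adjusted p are named, and for each member the 2 genes with the most similar pattern. The 18 alternatives were RLE factors, library size only, no filter, a floor of 1 CPM in 3 or more tumours, limma-voom (limma 3.58.1), DESeq2 1.42.0, no robust option, only the 2 groups compared, the replicate number as a block, and each tumour left out. The fitting was tested on simulated counts. Protein sequences were not used here. Python 3.11.15 with pandas 2.3.3 and matplotlib 3.10.9 made tables and figures.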

Additional observations from a re-analysis of the deposited data

How the results depend on the processing

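Leaving out 1 tumour at a time gave 3 to 9 called genes for LM1 versus HR1, 4 to 7 for LM9 versus HR1, 1 to 7 for LM9 versus LM1 and 4 to 8 for both LM models together, the highest value each time without HR1 replicate 1. Of all genes 22.1% to 52.8%, 26.7% to 55.7%, 8.16% to 45.5% and 35.0% to 56.0% were called in these fits. In LM9 versus LM1, 1 gene was called without LM1 replicate 1, LM1 replicate 3 or any 1 of the LM9 tumours and 2 without LM1 replicate 2, while 8 were called when only the 2 groups compared were fitted. The RLE factors, both filters, the fit without the robust option and DESeq2 left all 40 gene-by-comparison values on their side of the threshold, except that DESeq2 gave no adjusted p for *Igfbp2* and *Igfbp7*, and library size alone ended 1 call (*Igf1r*, LM9 versus LM1). DESeq2 called 4304 genes in LM9 versus LM1, where edgeR called 3102.

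Signs turned only for log2 fold changes that had not been called. When 1 tumour was left out they ranged as follows. In LM1 versus HR1 *Igfbp2* ranged from −1.68 to 0.93 and *Igfbp7* from −1.74 to 0.89. In LM9 versus HR1 *Igfbp2* ranged from −0.48 to 2.13, *Igfbp4* from −0.23 to 0.31, *Igfbp5* from −0.30 to 1.36, *Igfbp7* from −2.55 to 0.077 and *Igf2r* from −0.78 to 0.17. With both LM models together *Igfbp2* ranged from −1.08 to 1.53, *Igfbp4* from −0.42 to 0.12, *Igfbp7* from −2.15 to 0.48 and *Igf2bp2* from −0.37 to 1.00. Under limma-voom *Igfbp4* was 0.027 in LM9 versus HR1 and *Igfbp2* 0.39 in both together versus HR1. That method also ended 2 calls, *Igfbp3* in LM1 versus HR1 (limma adjusted p = 0.0590) and *Igf2r* in both together versus HR1 (limma adjusted p = 0.0717), and added 1, *Igf2bp2* in LM9 versus HR1 (limma adjusted p = 0.0468). The cause was not tested, apart from the high or low HR1 replicate 1 values given above.

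The replicate numbers do not pair the tumours. Correlations of the deviations of same-numbered tumours from their group means lay between −0.117 and 0.162. With the replicate number as a block *Igfbp4* was 0.017 in LM9 versus HR1 and *Igfbp2* 0.15 in both together versus HR1, both again not called, and the block ended 2 calls, *Igf1r* in LM9 versus LM1 (edgeR adjusted p = 0.0668) and *Igf2r* in both together versus HR1 (edgeR adjusted p = 0.0514). It called 2295 genes in LM9 versus LM1.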

Other observations

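A further pair of lists were read in the same fit, and the genes named from them were chosen after their values were seen. All 24 listed genes of PI3K and AKT signalling were tested. In LM9 10 were called higher and 2 lower than in HR1, beside 20.4% and 21.9% of all genes. Their median log2 fold change was 0.54, where that of all genes was −0.05. In LM1 5 were higher and 2 lower than in HR1 (all genes 16.7% and 18.7%), and in LM9 3 were higher and 1 lower than in LM1 (all genes 11.5% and 10.6%). The counts without HR1 replicate 1 were 12 and 2, 7 and 4, and 9 and 2, where all genes gave 27.9% and 27.8%, 26.9% and 26.0%, and 22.9% and 22.5%. *Rictor*, a subunit of mTOR complex 2, was higher in LM9 than in both LM1 (0.94 ± 0.18) and HR1 (1.65 ± 0.18; edgeR adjusted p = 0.00852 and 0.000354). *Akt1* was lower in LM9 than in LM1 (−0.73 ± 0.18, edgeR adjusted p = 0.0234). *Foxo3*, a transcription factor held in check by AKT, was higher in LM1 by 2.01 ± 0.24 and in LM9 by 2.21 ± 0.24 than in HR1 (edgeR adjusted p = 0.000553 and 0.00033).

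Of 9 tested imprinted growth genes, the class to which *Igf2r* belongs in mice, 0 were higher and 3 lower in LM9 than in LM1, namely *H19*, *Plagl1* and *Phlda2*. In LM1 2 were higher and 1 lower than in HR1, and in LM9 0 were higher and 3 lower. The shares of all genes in these 3 comparisons were 11.5% higher and 10.6% lower, 16.7% and 18.7%, and 20.4% and 21.9%, and the median log2 fold changes of the list were −0.88, −0.21 and −0.93. Leaving out HR1 replicate 1 gave counts of 1 higher and 3 lower, 2 and 2, and 0 and 3, and *Cdkn1c*, called lower in LM9 than in HR1 with that library (−2.59, edgeR adjusted p = 0.0331), was not called (−0.99, edgeR adjusted p = 0.0794). *Igf2*, the ligand cleared by the *Igf2r* protein, was 0.233, 2.18 and 51.5 CPM in HR1, 0.189, 0.181 and 0.483 CPM in LM1, and 0.0644, 0 and 0.225 CPM in LM9, so that its HR1 mean rested on replicate 3.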
